A study of Homo sapiens with 32 samples.

Results

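The comparison of STAG2 knockout (KO) clones with STAG2-proficient A673 cells rests on 11 of the 32 libraries of the series. They were chosen by genotype from the columns of 2 deposited count tables, called experiments 1 and 2 here. All 5 STAG2 KO libraries were compared with all 6 control libraries, described below, each within its own table. EZH2 and SUZ12 KO libraries, which the table of experiment 2 also holds, were left out. The study asked how loss of the cohesin subunit STAG2 alters gene expression and genome folding in Ewing sarcoma, and measured RNA in A673, an established cell line of this tumor. A673_iCas9, an A673 clone that makes Cas9 from the AAVS1 locus when induced, was the source of the edited cells. In each experiment the proficient cells were 2 libraries of this clone with STAG2 unedited (the WT clone) and 1 of parental cells, which carry no Cas9. The 2 of experiment 1 may stem from 1 sample, which is not stated. The KO libraries came from clones of the WT clone in which STAG2 was edited by CRISPR/Cas9, each library from 1 clone as numbered in the tables. Experiment 1 holds KO libraries 5 and 24, whose numbers could not be matched to a labelled clone, and experiment 2 holds KO clones 3, 5 and 2. The number 5 occurs in both experiments, but the sample titles label no KO library of experiment 1 as clone 5. Whether the number names the same clone is not stated. A clone differs from the line it came from in more than the edited gene, and with 1 library per clone a difference between clones and a difference between cultures cannot be told apart.

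Cohesin is a ring-shaped complex that holds sister chromatids together and extrudes loops of chromatin, which bring promoters near to distant enhancers. Its ring is joined by either of the subunits STAG1 and STAG2, and STAG2 is recurrently mutated in Ewing sarcoma. This tumor is driven by the fusion protein EWS::FLI1, which turns repeats of the motif GGAA into active enhancers and represses other genes, among them many of mesenchymal cells.

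The 6 proficient libraries held 16358857 to 20366240 counts (median 18627080.5) and the 5 KO libraries 16983193 to 20454331 (median 18894386), over 28278 gene symbols. Levels are given as CPM, counts scaled to a common library size by the TMM method. For the KO cells they are always listed in the order 5 and 24 of experiment 1, then 3, 5 and 2 of experiment 2. At these depths 3 counts in a library, taken as the floor of measurement, correspond to 0.151 to 0.181 CPM. Of 8 marker genes of Ewing sarcoma 7 were tested, and EWSR1, the 5′ partner of the fusion, was the most abundant with a mean of 324 CPM. Their summed level was 856, 858 and 798 CPM in the proficient libraries of experiment 1, 922, 997 and 881 in those of experiment 2, and 1020, 1130, 1090, 880 and 1020 in the KO libraries. CD99, the surface marker used in diagnosis, was listed at 0 in all 11 libraries of these tables, while the table of the STAG2 knockdown gave it a value high enough to be tested. The 8 immune markers summed to 2.46 to 5.55 CPM (most abundant CD68, with CD3E, HBB and MS4A1 at 0), the 6 endothelial markers to 0.426 to 2.35 (PECAM1) and the 7 markers of skeletal muscle to 2.07 to 4.78 (MYH3, with MYOD1 at 0). Epithelial markers summed to 192 to 385 CPM in proficient and 105 to 362 in KO libraries, nearly all of it from KRT18, with KRT5 at 0. Cells of every genotype thus carried the labelled tumor's transcripts, and the markers of immune, endothelial and muscle cells summed to at most 5.55 CPM.

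STAG2 (ENSG00000101972, chrX:123960212-124422664, + strand, GENCODE 44 on GRCh38) is the edited gene. Its level was 287, 294 and 274 CPM in the proficient libraries of experiment 1 and 272, 339 and 236 in those of experiment 2. In the KO libraries it was 41.3, 180, 66.8, 59.4 and 61.1 CPM. All 5 lay below every proficient library, and library 24 of experiment 1 kept the most transcript. Whether the remaining transcripts carry the edit cannot be read from counts per gene. Exons of STAG2-AS1 and TENM1 lie opposite those of STAG2, and reads without strand do not separate them. The log2 fold change by edgeR's quasi-likelihood test was −1.81 (SE 0.319, adjusted p = 0.00424). This test is the source of every adjusted p given for the KO unless another is named. The call was lost in experiment 1 alone (−1.37, adjusted p = 0.115) and against the parental line only (−1.70, adjusted p = 0.208).

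Among the other parts of the cohesin machinery, 18 of 21 listed genes were tested, 1 was called higher and 0 lower (2 and 0 without clone 5 of experiment 2), with a median log2 fold change of 0.17 against 0.04 over all 13574 genes tested. Over all genes 12.4% were called (6.67% higher, 5.76% lower) at an adjusted p under 0.05. The called gene was PDS5B, which binds the ring and pauses loop growth. It lay at 113 to 138 CPM (median 124) in the proficient and at 199, 190, 197, 176 and 236 CPM in the KO libraries, with no overlap (log2 fold change 0.68, SE 0.0966, adjusted p = 0.00123). STAG1, the alternative subunit, was at 94.5, 87.6 and 76.2 CPM in the proficient libraries of experiment 1 and 105, 123 and 102 in experiment 2, and at 107, 137, 145, 93.5 and 174 in the KO libraries. Clone 5 of experiment 2 lay below the 3 proficient libraries of its experiment, while the other 4 KO libraries lay above those of theirs. STAG1 was not called over the 11 libraries (log2 fold change 0.40, adjusted p = 0.114) and was called without clone 5 of experiment 2 (0.52, adjusted p = 0.00472). SMC1A, SMC3 and RAD21, the core of the ring, had log2 fold changes of 0.18, 0.16 and 0.07 with adjusted p of 0.522, 0.367 and 0.803. None of NIPBL, which drives extrusion, WAPL, which releases the ring, PDS5A and CTCF was called, with log2 fold changes of 0.30, 0.18, 0.17 and 0.14.

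**Figure D1:**
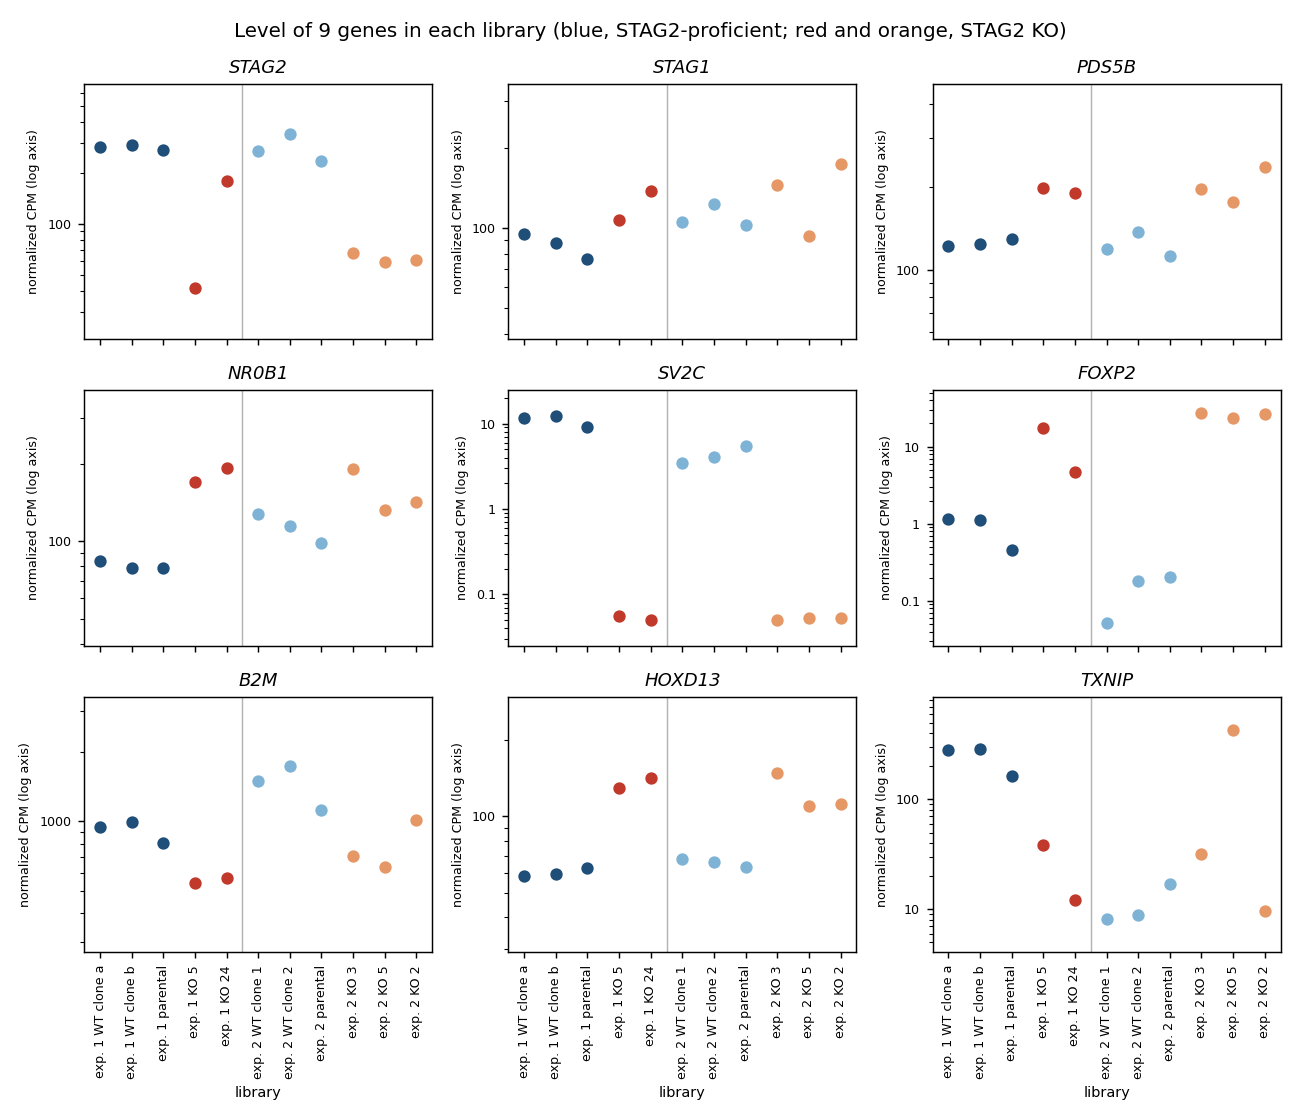
Normalized CPM (log axis) of 9 genes in each of the 11 libraries, 1 point per library, with experiment 1 left and experiment 2 right of the grey line; levels under 0.05 CPM are drawn at 0.05. STAG2 was lower in all 5 KO libraries, and TXNIP was high in the proficient libraries of experiment 1 and in KO clone 5 of experiment 2.

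Of the 13574 genes tested, 1687 were called, 905 higher and 782 lower in KO cells. Large changes were more often losses: 123 genes were called lower and 42 higher by more than 8-fold, and 469 lower and 335 higher by more than 2-fold. The 2 columns of the WT clone in experiment 1 differed little more than by counting error (mean chi-square 1.31 per gene, and 8.82 to 131 in the other pairs). They were kept as 2 libraries, and summed into 1, an alternative chosen after seeing the data, they left 1154 genes called (598 higher). In 1114 genes (8.21%) all KO libraries lay on the same side of every proficient library. Of these, 788 were called and had a mean of at least 5 CPM, 406 of them higher and 382 lower.

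The KO libraries were not alike. Clones 3 and 2 of experiment 2 differed by a median of 0.214 in log2 CPM per gene and the KO libraries 5 and 24 of experiment 1 by 0.262. Clone 5 of experiment 2 differed by 0.466 from clone 3 and by 0.532 from clone 2, more than either differed from the WT clone or the parental line of that experiment (0.29 to 0.392). The libraries nearest to clone 5 were the proficient ones of experiment 1 (0.376, 0.363 and 0.367), nearer than any library of its own experiment (0.466 to 0.545). Changes against the proficient libraries can be compared between experiments, which share no control. The points of such a correlation are genes and not independent replicates. Over 13574 genes the change in clone 3 correlated with that in KO libraries 5 and 24 of experiment 1 (r = 0.66 and 0.506), as did that in clone 2 (r = 0.702 and 0.604). The change in clone 5 did not (r = 0.0736 and −0.117). The clone that stood apart carried STAG2 at the level of the other clones of its experiment. Without it 4048 of 13670 genes were called (29.6%; 14.9% higher and 14.7% lower), among them 1686 of the 1687 called with it. Results are therefore given with and without clone 5 of experiment 2 where they are counts over a list. Such counts moved under other alternatives as well. Over all alternatives, counts of higher calls moved in 189 pairs of list and alternative and stayed in 405. Counts of lower calls moved in 106 and stayed in 488. The gene lists and their members were chosen with earlier results of these data known. A share called above that over all genes is thus not independent evidence of a change in a list.

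**Figure D2:**
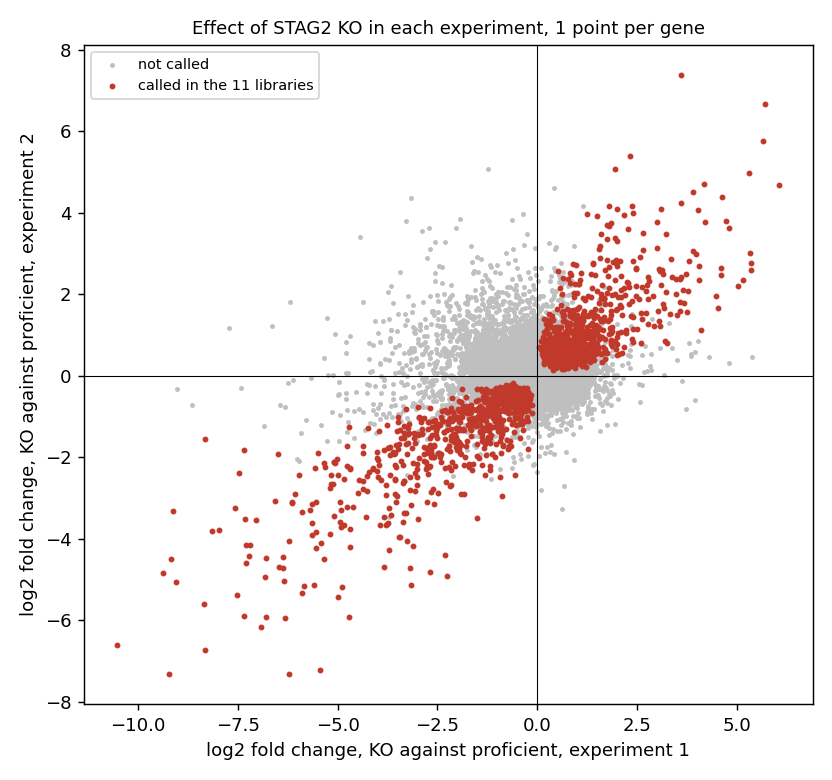
Log2 fold change of KO against proficient libraries in experiment 1 (x axis) and experiment 2 (y axis), each fitted alone, 1 point per gene, with genes called over the 11 libraries in red. Across 13245 genes Pearson's r was 0.409 and Spearman's rho 0.102.

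Named by rule were the 14 genes of lowest and the 14 of highest fold change among those 788 genes. GPR174, a receptor for a lysophospholipid, was at 16.2 to 82.3 CPM (median 36.1) in the proficient libraries and at 0.169, 0.0554, 0.0509, 0.157 and 0.106 in the KO libraries, where 10 counts were found in all 5 together. The ratio of the mean CPM of proficient cells to the level from the pooled counts of the KO libraries was 412 (95% counting interval 224 to 858). SYNDIG1, a membrane protein that binds AMPA receptors at synapses, was at 30 to 60.5 CPM (median 35.9) in proficient cells and at 0.0563, 0, 0.815, 0.0523 and 0.16 in KO cells (log2 fold change −7.48, adjusted p = 6.83e-05). Clone 3 of experiment 2 was the highest of the KO libraries. HTR1F, a serotonin receptor, was at 12.3 to 44 CPM (median 21.9) against 0.281, 0.166, 0.204, 0.209 and 0.372 in the KO libraries (log2 fold change −6.50, SE 0.365, adjusted p = 5.01e-06). ADGRG2, an adhesion receptor coupled to G proteins, was at 133 to 463 CPM (median 198) in proficient cells and 0.844, 0.443, 1.53, 18.8 and 1.12 in KO cells. In the latter clone 5 of experiment 2 stood highest, and the log2 fold change was −5.95 with it and −7.93 without it. The call of ADGRG2 was lost with DESeq2, in experiment 2 alone (−4.51, adjusted p = 0.0554) and with parental controls only. DGKK, a diacylglycerol kinase, fell from 8.49 to 20 CPM (median 11.9) to 0.0563, 0.222, 0.204, 0.157 and 0.16 in the KO libraries (log2 fold change −6.26, adjusted p = 1.43e-05). PLD5, a phospholipase D family member without known activity, fell from 20.3 to 42 CPM (median 23) to 0.844, 0.775, 0.0509, 0.105 and 0.266 (log2 fold change −6.19, adjusted p = 1.47e-05). Intervals and floors cover counting error only.

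TGFBI, a matrix protein induced by TGF-beta, was at 64.8, 62.5 and 78.5 CPM in the proficient libraries of experiment 1, 19.8, 19.2 and 92 in those of experiment 2 and 0.225, 1.44, 1.43, 1.31 and 1.33 in the KO libraries (log2 fold change −5.54, adjusted p = 0.000255). NID2, a basement membrane protein, was at 27.2 to 111 CPM (median 70.2) in proficient and 1.35, 0.0554, 0.662, 4.97 and 0.851 in KO libraries (log2 fold change −5.24, adjusted p = 0.00145). Its call was lost with DESeq2 and with parental controls only. C7, a component of complement, was at 60.2, 60.5 and 14.1 CPM and 13.5, 13.8 and 6.27 CPM in the proficient libraries of experiments 1 and 2, the parental line being the lowest in each, and at 0.45, 0.332, 0.255, 0.262 and 0.585 in the KO libraries (log2 fold change −5.76, adjusted p = 0.0002). PDPN, a membrane glycoprotein, showed the opposite order in experiment 2, with 2.45, 2.05 and 9.67 CPM in its proficient libraries, the parental last and highest. In the KO libraries PDPN was at 0.169, 0, 0.102, 0.419 and 0.0532 CPM (log2 fold change −5.60, adjusted p = 0.00135). SLC35F1, a putative transporter, was at 7.05 to 35.6 CPM (median 20.5) in proficient and 0.675, 0.277, 0.509, 0.105 and 0.585 CPM in KO libraries (log2 fold change −5.56, adjusted p = 9.85e-05). DACT2, which binds Dishevelled, was at 12.7 to 25.7 CPM (median 21.3) against 0.0563, 0, 1.07, 0.209 and 0.798 (log2 fold change −5.89, adjusted p = 0.000255). SERTM1, a small transmembrane protein, was at 87.1 to 156 CPM (median 112) against 7.32, 1.44, 2.29, 1.15 and 3.72 (log2 fold change −5.20, adjusted p = 4.97e-05). It lies on chromosome 13, whose genes were low as a whole in the KO libraries of experiment 1. The last of the 14 is the ligand BMP7, described with the secreted factors.

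The 14 genes of the highest fold change had a mean of at most 10.9 CPM in proficient cells. FOXP2, a transcription factor of the developing brain, was at 1.14, 1.13 and 0.455 CPM in the proficient libraries of experiment 1, 0.0522, 0.181 and 0.206 in those of experiment 2 and 17.6, 4.65, 27, 23.7 and 26.5 in the KO libraries (log2 fold change 5.45, SE 0.749, adjusted p = 0.001). KO library 24 of experiment 1 was the lowest of the 5. DNAJC6, the auxilin that uncoats clathrin vesicles, was at 0.241 to 2.23 CPM (median 0.443) in proficient and 16.3, 22.2, 8.86, 22 and 6.22 CPM in KO libraries (log2 fold change 4.47, adjusted p = 0.000824). HAPLN1, which links hyaluronan to proteoglycans, was at 0.515 to 1.19 CPM (median 0.726) against 12.2, 13.2, 9.78, 17.6 and 11.5 (log2 fold change 4.06, SE 0.275, adjusted p = 1.84e-05). MAP7D2, a microtubule-binding protein, was at 1.65 to 7.05 CPM (median 4.26) in proficient and 56.4, 123, 34.7, 92.4 and 22.7 CPM in KO cells (log2 fold change 4.06, adjusted p = 0.000813). NR2F1, a nuclear receptor of the COUP-TF family, rose from 1.03 to 6.44 CPM (median 1.73) to 44.1, 38.1, 18.5, 20.8 and 35.4 (log2 fold change 3.44, adjusted p = 0.00162). EDIL3, a secreted ligand of integrins, was at 10.8, 12.7 and 3.69 and 16.8, 19.7 and 1.59 CPM in the proficient libraries of experiments 1 and 2, lowest in the parental line of each, and at 171, 98.2, 37.8, 158 and 125 in KO libraries (log2 fold change 3.44, adjusted p = 0.00366).

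GRIA2, a subunit of AMPA receptors, was at 28.6 and 34.3 CPM in the KO libraries of experiment 1 and at 1.07, 2.93 and 6.97 in those of experiment 2, with 0.463 to 0.966 in proficient cells. PHACTR1, a regulator of actin and of phosphatase 1, showed the same order, with 32.5 and 61.6 against 9.11, 3.04 and 12.5 CPM in KO cells and 0.669 to 2.71 in proficient cells. SPX, a peptide hormone, showed the reverse, with 15.3 and 5.37 CPM in experiment 1 and 27.8, 97.8 and 19.4 in experiment 2, clone 5 being the highest, and 1.03 to 3.14 in proficient cells. The log2 fold changes of GRIA2, PHACTR1 and SPX were 3.96, 3.54 and 3.75. By edgeR none of them passed the test for a difference between the experiments (interaction, adjusted p = 0.0901, 0.0873 and 0.0873). CD79B, a subunit of the B cell receptor, was at 0.206 to 1.08 CPM in proficient and 8.22, 19.1, 10.4, 14.8 and 2.71 in KO libraries (log2 fold change 4.17, adjusted p = 0.000843). KHDRBS3, an RNA-binding protein, was at 1.13 to 1.99 against 21.7, 34.6, 31, 17.7 and 9.2 CPM (log2 fold change 3.98, adjusted p = 5.61e-05). KCTD12, an auxiliary subunit of GABA-B receptors, was at 0.412 to 2.38 against 20.2, 6.92, 19.9, 30.8 and 21.5 CPM (log2 fold change 3.96, adjusted p = 0.000475), highest in clone 5 of experiment 2. MMP3, a metalloprotease, was at 1.08 to 2.11 against 16.9, 23.5, 29.6, 2.98 and 14.7 CPM (log2 fold change 3.44, adjusted p = 0.00112), and there clone 5 came nearest to the proficient libraries. DENND2C, an activator of Rab proteins, was at 2.97 to 6.38 against 35.9, 135, 21, 41.3 and 15.4 CPM (log2 fold change 3.29, adjusted p = 0.000378), highest in library 24 of experiment 1. In non-directional libraries, reads of SPX and GYS2, of PHACTR1 and TBC1D7 and of NR2F1 and NR2F1-AS1 cannot be told apart where their exons overlap.

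**Figure D3:**
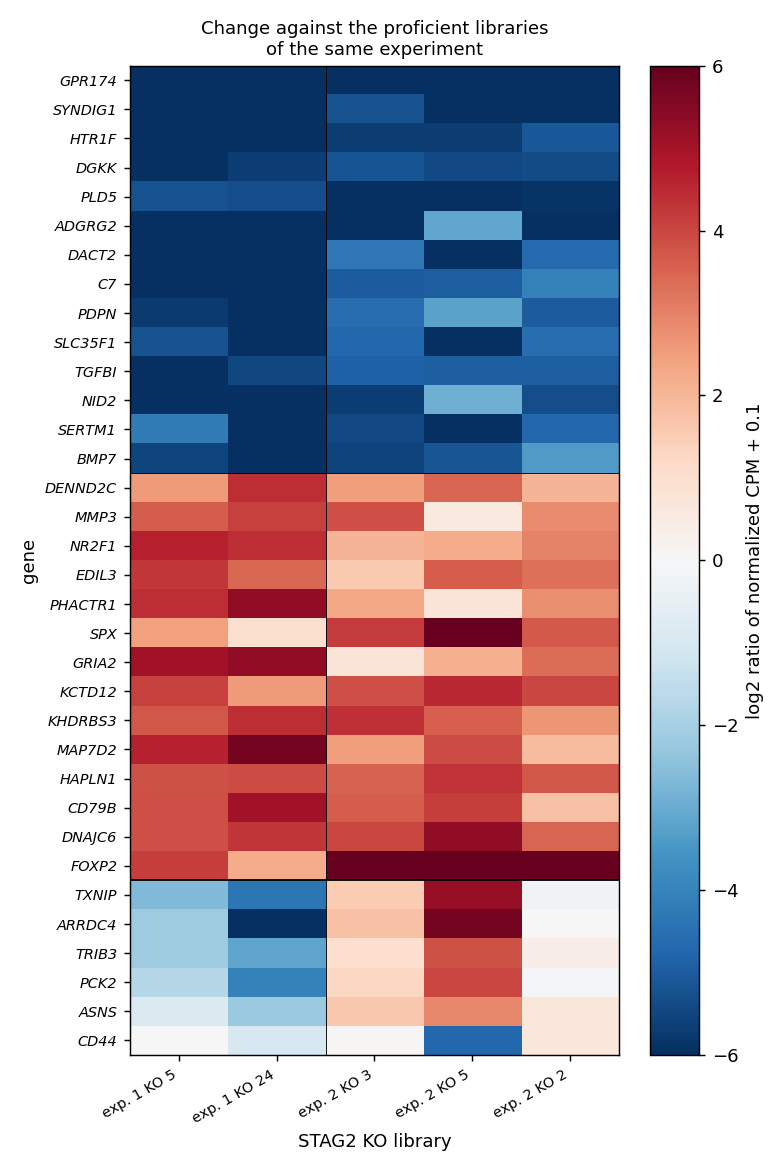
Log2 ratio of normalized CPM + 0.1 in each KO library to the mean of the proficient libraries of the same experiment, for the 14 genes of lowest and the 14 of highest fold change and, under the thick line, 6 genes chosen after their values were seen; colors end at 6 in either direction. The rule that chose the upper 28 genes fixed their direction in all 5 libraries, while TXNIP, ARRDC4, TRIB3 and PCK2 fall in experiment 1 and are high in clone 5 of experiment 2.

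Because EWS::FLI1 binds GGAA repeats, the promoters of the genes named by rule were searched for tandem runs of the motif GGAA or of its reverse complement TTCC in the 250 bases before the start. Of 82 such genes, counted without STAG2 and STAG1, 63 had a promoter in the RefSeq table (GRCh38.p14), and the entry listed first was used. A run of at least 2 copies was found in 4 of the 63 (6.35%) and in 1076 of all 35116 promoters of the table (3.06%), and a run of at least 3 copies in 0 of the 63 and in 25 of all (0.0712%). Genes called lower and higher held a run of at least 2 copies in 2.78% of 611 and 2.91% of 722 promoters, against 2.91% of 10507 over all genes tested. The 4 promoters with a run of 2 copies are shown to let the motif be seen in place, with the run in capitals, 5′ to 3′ on the strand of the gene. They belong to HTR1F (chr3:87792456-87792705, + strand) and TNC (chr9:115118158-115118407, − strand), lower in KO cells, DNAJC6 (chr1:65264499-65264748, + strand), higher, and PCDHGC3 (chr5:141475716-141475965, + strand), lower. A match is a description of the sequence and not a site shown to be bound.
HTR1F: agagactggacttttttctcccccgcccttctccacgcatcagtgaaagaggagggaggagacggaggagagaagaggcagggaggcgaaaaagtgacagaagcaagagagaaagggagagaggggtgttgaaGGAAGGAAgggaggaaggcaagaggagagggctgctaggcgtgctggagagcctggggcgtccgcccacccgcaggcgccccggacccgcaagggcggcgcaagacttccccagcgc
TNC: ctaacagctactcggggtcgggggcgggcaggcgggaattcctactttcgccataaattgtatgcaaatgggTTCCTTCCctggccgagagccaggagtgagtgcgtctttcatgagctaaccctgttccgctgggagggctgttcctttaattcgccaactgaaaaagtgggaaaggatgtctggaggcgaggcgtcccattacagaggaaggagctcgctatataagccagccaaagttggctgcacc
DNAJC6: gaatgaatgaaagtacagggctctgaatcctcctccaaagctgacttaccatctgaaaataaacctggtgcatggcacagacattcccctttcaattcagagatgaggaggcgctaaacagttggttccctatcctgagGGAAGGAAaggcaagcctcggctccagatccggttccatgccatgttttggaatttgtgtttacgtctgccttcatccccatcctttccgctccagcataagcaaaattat
PCDHGC3: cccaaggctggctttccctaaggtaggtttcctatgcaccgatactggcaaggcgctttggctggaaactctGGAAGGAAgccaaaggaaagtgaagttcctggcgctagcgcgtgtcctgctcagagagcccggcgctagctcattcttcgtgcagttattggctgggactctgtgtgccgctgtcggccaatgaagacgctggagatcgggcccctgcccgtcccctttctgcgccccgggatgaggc

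Of 35 tested genes known to be activated by EWS::FLI1, 13 were called lower and 7 higher (37.1% and 20%, against 5.76% and 6.67% over all genes). Their median log2 fold change was −0.30. Without clone 5 of experiment 2 the counts were 14 and 9. The median change of the list was −0.234, −0.0275, −0.243, −0.348 and −0.395 in the KO libraries, least in library 24 of experiment 1. TNC, the matrix protein tenascin C, was at 640 to 1150 CPM (median 718) in proficient and 92.5, 142, 91.2, 64.5 and 139 CPM in KO libraries (log2 fold change −2.92, SE 0.239, adjusted p = 5.55e-05). TNFRSF21, a death receptor of the TNF family, was at 56.2 to 68.2 CPM (median 61.8) against 16.2, 12.9, 17.1, 27 and 20.4 (log2 fold change −1.78, SE 0.135, adjusted p = 3.89e-05), with no overlap. STEAP2, a metalloreductase, was the called member of smallest adjusted p that rose, from 86.7 to 155 CPM (median 121) to 277, 213, 225, 232 and 222 (log2 fold change 1.04, SE 0.122, adjusted p = 0.000432). NR0B1, a nuclear receptor and marker of the fusion's activity, was at 83.6, 78.4 and 78.8 and 128, 115 and 98.7 CPM in the proficient libraries of experiments 1 and 2 and at 170, 193, 191, 132 and 142 in KO libraries, all above every proficient library (log2 fold change 0.78, adjusted p = 0.00859). BCL11B, a transcription factor, was at 106, 97.7 and 92.4 CPM in the proficient libraries of experiment 1, 46.3, 51 and 48.1 in those of experiment 2 and 158, 99.6, 77.9, 92.4 and 75.1 in KO libraries. It was called higher (log2 fold change 0.59, adjusted p = 0.0139), with groups that overlapped in experiment 1 and over both experiments, and a call lost when KO library 5 of experiment 1 or WT clone library 1 of experiment 2 was left out. The transcripts of the fusion's partners, EWSR1 and FLI1, had log2 fold changes of −0.09 and 0.26 and were not called. Without clone 5 of experiment 2 FLI1 was called higher (0.40, adjusted p = 0.0156), as it was in experiment 1 fitted alone (0.57, adjusted p = 0.028) but not in experiment 2 alone (−0.01, adjusted p = 0.982). Reads per gene do not separate either transcript from the fusion.

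The study sorted genes that respond to knockdown of EWS::FLI1 in A673 cells into classes, by GGAA motifs bound by the fusion at the promoter itself or at a distal site that touches it in Promoter Capture Hi-C. The classes are thus not all genes with such a site or contact. Of 149 tested genes of the class in contact with a distal long GGAA repeat, 48 were called lower and 10 higher (32.2% and 6.71%), and 63 and 16 of 150 without clone 5 of experiment 2. The median change of the class was −0.534, −0.323, −0.32, −0.476 and −0.283 in the KO libraries. Of 660 genes of the class in contact with a distal short repeat, 91 were lower and 38 higher (13.8% and 5.76%), and of 539 genes with the fusion bound at the promoter 35 were lower and 70 higher (6.49% and 13%). Without clone 5 these counts were 158 and 101 of 665 and 83 and 131 of 540. Within the long-repeat class, 12 of 26 genes with a contact lost in KO cells were called lower and 0 higher (46.2% and 0%). Of 123 with a contact common to both genotypes 36 were lower and 10 higher (29.3% and 8.13%). Without clone 5 the counts were 13 lower and 2 higher for lost and 50 and 14 of 124 for common contacts. Whether a lost contact lowers a gene was not tested. Within the short-repeat class 14 of 92 genes with a lost contact were lower and 5 higher (15.2% and 5.43%). With a common contact 77 of 568 were lower and 33 higher (13.6% and 5.81%). Without clone 5 the counts were 25 and 15 of 92 and 133 and 86 of 573. Genes that the study calls STAG2-dependent were selected on these samples, so that their shares called are not independent evidence. Of these, 21 of 67 with a gained contact were higher and 8 lower (31.3% and 11.9%). With a lost contact 34 of 122 were higher and 30 lower (27.9% and 24.6%). With a common contact 177 of 772 were higher and 187 lower (22.9% and 24.2%). Without clone 5 the counts were 37 higher and 21 lower, 51 and 55 of 123, and 296 and 350 of 777.

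Genes of mesenchymal cells, many of which EWS::FLI1 is known to repress, were more often lower than higher in KO cells. Of 36 tested, 12 were called lower and 2 higher (33.3% and 5.56%, against 5.76% and 6.67% over all genes). Without clone 5 of experiment 2 the counts were 13 and 7. The list's median change was −0.414, −0.541, −0.398, −1.06 and −0.00642 in the KO libraries, so that clone 2 of experiment 2 did not share it. FN1, fibronectin, was at 8425, 8342 and 4213 CPM in the proficient libraries of experiment 1, 4994, 4928 and 4242 in those of experiment 2 and 1300, 897, 1419, 294 and 1924 in the KO libraries (log2 fold change −2.27, SE 0.424, adjusted p = 0.00569). COL6A3, a collagen chain, fell from 4.27 to 8.08 CPM (median 5.69) to 1.01, 0.332, 0.662, 0.314 and 0.532 (log2 fold change −3.34, SE 0.351, adjusted p = 0.000238), and COL5A1, another, from 136 to 252 CPM (median 219) to 73.3, 65.7, 93.2, 83.8 and 96.7 (log2 fold change −1.31, SE 0.198, adjusted p = 0.00171). SNAI2, a transcription factor of mesenchymal transition, was at 2.88 to 4.64 CPM (median 3.62) against 0.957, 0.277, 0.764, 1.88 and 0.798 CPM (log2 fold change −2.07, adjusted p = 0.00699). In bulk RNA, fewer cells with a transcript and less of it per cell cannot be told apart. The 8 markers of fibroblasts and mesenchymal stem cells, all tested, overlap this list and were called lower in 4 and higher in 1, with and without clone 5. Their summed level, mostly COL3A1 with a mean of 331 CPM, was 710, 721 and 688 CPM in the proficient libraries of experiment 1, 1380, 1290 and 718 in those of experiment 2, and 690, 538, 627, 501 and 871 in the KO libraries, with no marker at 0. PDGFRB, a growth factor receptor, was at 103 to 154 CPM (median 131) in proficient and 67.8, 68.4, 49.3, 42.1 and 52.4 CPM in KO libraries (log2 fold change −1.23, adjusted p = 0.000432). DCN, the proteoglycan decorin, was at 2.04 to 4.65 CPM (median 2.62) against 0.732, 0, 0, 0.105 and 0.106 (log2 fold change −4.04, adjusted p = 0.00615). LUM, lumican, overlapped between the groups, with 1.02 to 11 CPM in proficient and 0.0509 to 1.8 in KO libraries and a call that was lost in 7 of 11 fits with a library left out. THY1, a surface glycoprotein, was at 115 to 182 CPM (median 134) in proficient and 278, 290, 217, 150 and 190 CPM in KO libraries and was called higher (log2 fold change 0.68, adjusted p = 0.0343), with groups that overlapped in experiment 2 and a call lost in 9 of 11 such fits. KRT8, a keratin, was the only called member of the 2 epithelial markers tested, at 22 to 35.7 CPM (median 25.3) in proficient and 8.84, 14.1, 8.71, 10.3 and 8.99 CPM in KO libraries (log2 fold change −1.37, adjusted p = 0.00091). Exons of KRT18 lie opposite it, and reads without strand do not separate them.

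Of 32 tested genes of synaptic vesicle release 8 were called lower and 1, DNAJC6, higher (25% and 3.12%, against 5.76% and 6.67% over all genes). Without clone 5 of experiment 2 the counts were 14 and 1 of 33. The list was chosen with earlier results of these data known, so that its shares are not independent evidence. SV2C, a vesicle glycoprotein, was at 3.5 to 12.3 CPM (median 7.3) in proficient cells and 0.0563, 0, 0, 0.0523 and 0.0532 in KO cells, where 3 counts were found in all 5 libraries. The ratio formed as for GPR174 was 239 (95% counting interval 81.7 to 1160). CADPS2, which primes dense-core vesicles, was at 134 to 178 CPM (median 151) against 64.1, 57, 83.9, 63.9 and 76.4 (log2 fold change −1.17, SE 0.11, adjusted p = 0.000116), and RAB3B, a vesicle GTPase, at 47.8 to 91.7 CPM (median 71.4) against 24, 21.9, 22.2, 27.9 and 23.4 (log2 fold change −1.46, SE 0.169, adjusted p = 0.000387). The KO libraries of both lay close together and below every proficient library. Of 26 tested voltage-gated and related channels 7 were lower and 3 higher (26.9% and 11.5%), and 7 and 6 of 27 without clone 5. Their median log2 fold change was 0.233, but −0.225 with DESeq2 and −0.283 with no filter, and −0.225 in experiment 1 and 0.579 in experiment 2, each fitted alone. CACNA1C, a calcium channel, fell from 4.4 to 14.8 CPM (median 7.33) to 0.0563, 0, 0.305, 0.0523 and 0.0532 (log2 fold change −6.41, adjusted p = 0.000255) and KCNJ12, an inward rectifier of potassium, rose from 1.29 to 5.54 CPM (median 2.32) to 13.6, 58, 13, 15 and 29.5 (log2 fold change 3.14, adjusted p = 0.00327). HCN2, a pacemaker channel, was at 13 to 23.4 CPM in proficient and 5.91 to 10.4 in KO libraries (log2 fold change −1.25, adjusted p = 0.00112), and the sodium channel SCN2A at 1.25 to 2.71 and 0.166 to 0.366 (log2 fold change −2.70, adjusted p = 0.000361).

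Secreted WNT, BMP and guidance factors were lower in KO cells in 9 of 22 tested and higher in 2 (40.9% and 9.09%). These shares stand against 5.76% and 6.67% over all genes. Without clone 5 of experiment 2 the counts were 13 and 2 of 23. The list's median was −0.70, and its change was −1.38, −2.09, −1, −1.03 and −0.401 in the KO libraries, all below the proficient libraries (−0.289 to 0.181). BMP7, a bone morphogenetic protein, was at 28.1 to 60 CPM (median 47) in proficient and 1.07, 0.222, 0.764, 1.05 and 3.83 CPM in KO cells (log2 fold change −5.14, SE 0.562, adjusted p = 0.000269). INHBA, the subunit of activin A, fell from 2.21 to 6.48 CPM (median 4.2) to 0.113, 0, 0.0509, 0.105 and 0.213 (log2 fold change −5.33, adjusted p = 0.000255). BMP6, a ligand of the same family as BMP7, rose from 2.41 to 4.05 CPM (median 3.09) to 21.6, 8.42, 9.72, 14.5 and 10.2 (log2 fold change 2.11, adjusted p = 0.000491), and NOG, which binds and blocks BMPs, from 0 to 0.257 to 0.957, 2.38, 3.92, 2.36 and 2.82 CPM (log2 fold change 5.12, adjusted p = 0.00154). No KO library overlapped the proficient libraries in INHBA, BMP6 and NOG, and reads of BMP6 and TXNDC5 cannot be told apart where they share exonic sequence.

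**Figure D4:**
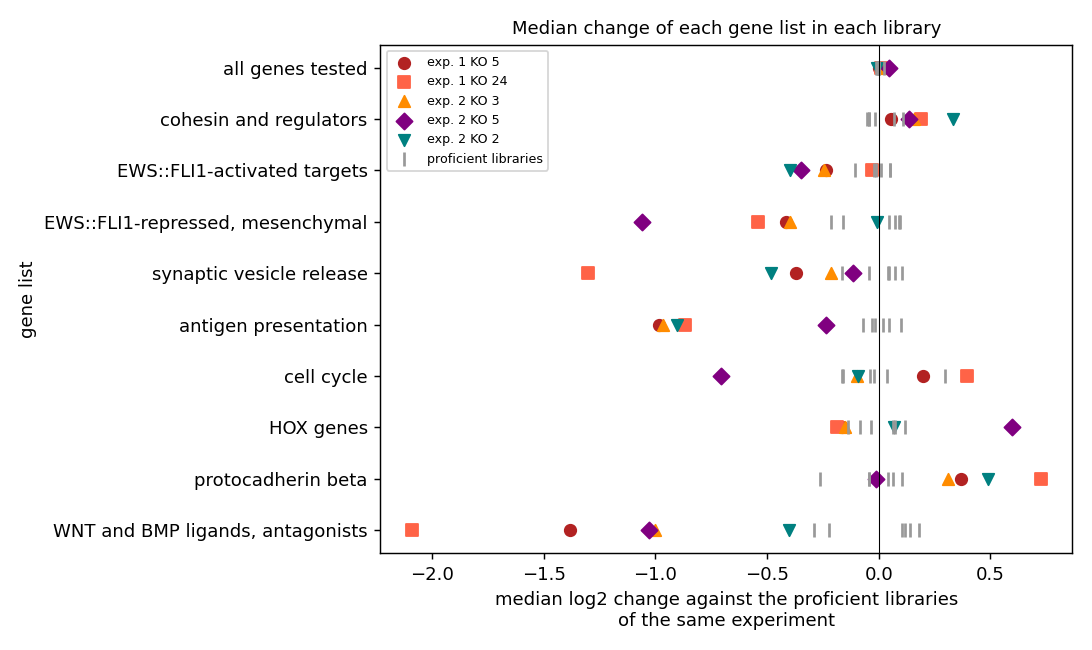
Median log2 change of the tested genes of 9 lists and of all genes, against the mean of the proficient libraries of the same experiment, in each KO library (colored) and each proficient library (grey bars). WNT and BMP factors were below the proficient libraries in all 5 KO libraries, while the cell cycle list was lowest in clone 5 of experiment 2.

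Transcription factors of lineage were called in either direction, 11 higher and 7 lower of 37 tested (29.7% and 18.9%). These shares stand against 6.67% and 5.76% over all genes. Without clone 5 of experiment 2 the counts were 13 and 13. SOX9, a factor of cartilage and neural crest, was at 66.8, 62.5 and 47.1 CPM in the proficient libraries of experiment 1, 26.6, 26.4 and 16.4 in those of experiment 2 and 1.8, 1.99, 3.16, 0.523 and 2.13 in KO cells (log2 fold change −4.16, SE 0.436, adjusted p = 0.000238). SOX11, a neural factor, was at 179, 179 and 148 CPM in the proficient libraries of experiment 1, 131, 121 and 88.9 in those of experiment 2 and 251, 270, 179, 176 and 223 in KO cells (log2 fold change 0.70, SE 0.122, adjusted p = 0.00395). Every KO library lay above the proficient ones of its experiment, with an overlap between experiments. Of 26 HOX genes tested, 3 were higher and 0 lower (11.5% and 0%), and 4 and 4 without clone 5. HOXD13, which patterns limbs and is highly expressed in Ewing sarcoma, was at 58.2 to 67.8 CPM (median 62.8) against 129, 142, 148, 110 and 112 (log2 fold change 1.03, SE 0.102, adjusted p = 0.000157). HOXC13 was at 8.19 to 11.2 CPM in proficient and 12.9, 15.1, 18.3, 14.4 and 12.8 in KO libraries (log2 fold change 0.63, adjusted p = 0.0236), and HOXC12 at 11.4, 11.6 and 7.48 and 2.71, 3.67 and 4.58 CPM in the proficient libraries of experiments 1 and 2 and 15, 12, 8.3, 9.32 and 11.3 in KO libraries (log2 fold change 0.96, adjusted p = 0.0308). Both lay above the proficient libraries within each experiment, and their calls were lost in 5 and 7 of the 11 fits with a library left out.

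Of 21 antigen presentation genes tested, 9 were called lower, 0 higher and 12 not called (42.9% lower and 0% higher). These shares stand against 5.76% and 6.67% over all genes. Without clone 5 of experiment 2 the counts were 13 and 0. The list's median was −0.68, and its change was −0.983, −0.866, −0.966, −0.236 and −0.902 in the KO libraries, least in clone 5 of experiment 2. HLA-C, a class I heavy chain, was at 63.6, 64.2 and 109 CPM in the proficient libraries of experiment 1, 52.3, 48.1 and 62.1 in those of experiment 2 and 13.6, 21.2, 6.97, 32.8 and 5.85 in the KO libraries (log2 fold change −1.99, SE 0.421, adjusted p = 0.0108). Without clone 5 its log2 fold change was −2.60 (adjusted p = 6.35e-05). B2M, the light chain, was at 946, 991 and 810 and 1492, 1735 and 1127 CPM in the proficient libraries of experiments 1 and 2 and at 542, 567, 706, 637 and 1012 in KO libraries, lower within each experiment (log2 fold change −0.81, SE 0.153, adjusted p = 0.00587). ERAP1, which trims peptides, was at 68.7 to 105 CPM in proficient and 30.8 to 59.2 in KO libraries (log2 fold change −0.97, SE 0.132, adjusted p = 0.000967), though reads of CAST on the other strand cannot be told apart where exons overlap. IRF7, a factor of the interferon response, was at 11.6, 11.4 and 6.62 and 7.36, 5.06 and 5.97 CPM in the proficient libraries of experiments 1 and 2 and 4.9, 5.21, 2.9, 2.62 and 3.19 in KO libraries, lower within each experiment (log2 fold change −1.03, adjusted p = 0.00935). Reads of HLA genes, which resemble each other, may be shared between them in the authors' counting.

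Of 26 immediate early genes tested 3 were higher, 3 lower and 20 not called (11.5% in each direction, against 6.67% higher and 5.76% lower over all genes), and 6 and 6 without clone 5 of experiment 2. NR4A3, an orphan nuclear receptor, was at 13.3 to 25.4 CPM (median 18.6) against 3.15, 3.66, 3.31, 1.41 and 5.85 CPM (log2 fold change −2.42, adjusted p = 0.000848). EGR4, a zinc finger factor induced by growth signals, was at 1.26 to 3.18 CPM in proficient and 0.0563, 0, 0.255, 0.209 and 0.106 in KO libraries (log2 fold change −3.99, adjusted p = 0.00172), and EGR2, another, at 11 to 13.3 against 3.32, 2.33, 7.89, 4.66 and 3.35 (log2 fold change −1.54, adjusted p = 0.00534). In these 3 genes every KO library lay below every proficient one. JUN, a subunit of AP-1, was higher within each experiment, at 20.9, 20.4 and 23.4 and 31.9, 29.6 and 41.7 CPM in proficient and 51.5, 39.9, 62.7, 111 and 63.6 in KO libraries (log2 fold change 1.15, adjusted p = 0.00143). Of 16 feedback inhibitors of ERK 2 were higher, 2 lower and 12 not called (12.5% in each direction), and 7 and 3 without clone 5. SPRED3, an inhibitor of RAS signaling, was at 7.73, 6.54 and 2.58 and 2.5, 1.87 and 2.78 CPM in the proficient libraries of experiments 1 and 2 and 15.6, 32, 8.91, 6.91 and 8.46 in KO libraries, higher within each experiment (log2 fold change 1.91, adjusted p = 0.0022). PHLDA1, induced by ERK, was at 4.28 to 7.46 CPM in proficient and 1.58, 1.11, 1.48, 1.83 and 3.4 in KO libraries (log2 fold change −1.59, adjusted p = 0.00651). SPRY1, a Sprouty inhibitor, was at 5.41 to 8.13 against 1.91, 0.942, 1.02, 4.76 and 1.01 CPM (log2 fold change −1.87, adjusted p = 0.0193), highest among KO cells in clone 5 of experiment 2. SPRY2, of the same family, was at 5.2 to 8.85 against 14.4, 11.2, 20.2, 6.7 and 15.9 CPM, with clone 5 of experiment 2 among the proficient libraries. It was at the limit of the call (log2 fold change 0.90, adjusted p = 0.0464), which was kept in 1 of 11 fits with a library left out.

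The clustered protocadherins, cell surface proteins whose promoters are chosen by contacts at CTCF sites, lie in 3 clusters. Of 15 beta genes tested 4 were higher and 0 lower (26.7% and 0%, against 6.67% and 5.76% over all genes). Without clone 5 of experiment 2 the counts were 5 and 0. PCDHB6 was at 7.23 to 12.9 CPM (median 11) in proficient and 27.6, 23.4, 21.7, 15.8 and 23.2 CPM in KO libraries (log2 fold change 1.15, SE 0.147, adjusted p = 0.000716), and PCDHB8 at 3.03 to 4.54 CPM (median 3.89) against 10.1, 13.6, 8.71, 6.28 and 7.61 (log2 fold change 1.27, adjusted p = 0.00363). PCDHB16 was at 11 to 13.3 CPM in proficient and 22.1, 39.6, 26.4, 12.5 and 26.3 in KO libraries (log2 fold change 1.05, adjusted p = 0.0129), and PCDHB7 at 1.03 to 1.51 against 3.04, 4.04, 2.14, 1.26 and 2.13 (log2 fold change 0.97, adjusted p = 0.0395). Both were higher in 4 of the 5 KO libraries, with clone 5 of experiment 2 among the proficient ones, and PCDHB7 lost its call in 9 of 11 fits with a library left out. Of 25 alpha and gamma genes tested 5 were lower and 0 higher (20% and 0%), and 6 and 5 of 26 without clone 5. Genes of the alpha and of the gamma cluster share their last exons, so that their counts are uncertain. The calls therefore do not show a separate loss of each gene. In mock-transfected A673 cells of the knockdown, PCDHGC3, PCDHGA11 and PCDHAC1 had means of only 1.71, 2.35 and 0.983, where STAG2 had 1050. The cause of this difference between the count tables was not tested. PCDHGC3 was at 57.5 to 97.3 CPM (median 87.2) in proficient and 39.5, 34.8, 27.6, 24.5 and 29.8 CPM in KO libraries (log2 fold change −1.37, SE 0.147, adjusted p = 0.000255), PCDHGA11 at 47.2 to 57.8 and 19.7 to 33.7 (log2 fold change −0.99, adjusted p = 0.000361), and PCDHAC1 at 3.55 to 7.88 and 1.29 to 2.22 (log2 fold change −1.57, adjusted p = 0.00316). PCDHGA6 was at 38.7, 37.4 and 27.2 and 24, 24.2 and 17.5 CPM in the proficient libraries of experiments 1 and 2 and 16.7, 16.7, 14.1, 17.6 and 16.8 in KO libraries (log2 fold change −0.70, adjusted p = 0.02). It overlapped in experiment 2 and lost its call when either KO library of experiment 1 was left out.

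Of 32 subunits of Polycomb complexes tested, 3 were higher and 1 lower (9.38% and 3.12%, against 6.67% and 5.76% over all genes). Without clone 5 of experiment 2 the counts were 8 and 2. The lower gene was PHF19, which recruits PRC2, at 71.6 to 77 CPM in proficient and 43.1 to 57.5 in KO libraries (log2 fold change −0.61, SE 0.0862, adjusted p = 0.00117). MTF2, a related factor, was at 56.8, 56.4 and 57.5 and 65.7, 75.2 and 67.1 CPM in the proficient libraries of experiments 1 and 2 and 71.5, 84.4, 94.4, 78.2 and 106 in KO libraries (log2 fold change 0.44, adjusted p = 0.013). RBBP7, a histone-binding subunit, was at 132 to 197 CPM in proficient and 239, 204, 249, 362 and 232 in KO libraries (log2 fold change 0.59, adjusted p = 0.0285). PHC3 of PRC1 was at 31 to 39.6 against 41, 49.2, 40.2, 48.6 and 39.9 (log2 fold change 0.35, adjusted p = 0.0495). These 3 genes were higher within each experiment, and their calls were lost in 1, 6 and 9 of the 11 fits with a library left out.

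By edgeR 0 of the 36 genes of the cell cycle list were called over the 11 libraries, with 0 at an unadjusted p under 0.05 and 0 called by DESeq2. Without clone 5 of experiment 2 edgeR called 1 higher. In experiment 1 fitted alone, where 3663 genes were called in all, 8 of the list were called higher and 1 lower, and in experiment 2 alone none was called. The fit of experiment 1 took its 2 WT clone columns as separate libraries and was not run with them summed. The list's median change was 0.2 and 0.394 in the KO libraries of experiment 1 and −0.0968, −0.704 and −0.0932 in clones 3, 5 and 2 of experiment 2. In the proficient libraries it ran from −0.164 to 0.296, the parental line of experiment 1 being the highest. RRM2, a subunit of ribonucleotide reductase, was at 192, 201 and 407 CPM in the proficient libraries of experiment 1 and 490 and 585 in its KO libraries. In experiment 2 it was at 555, 600 and 555 in proficient and 593, 259 and 592 CPM in KO clones 3, 5 and 2. CCNE2, a cyclin of S phase entry, was at 15.1, 17.3 and 18.2 CPM in the proficient libraries of experiment 2 and 14.1, 0.785 and 19.7 in its KO clones. Clone 5 was thus low in both genes, which were picked from the list and not named by the rule. CCNE2 had 15 counts there. CDC25C, TOP2A, CDKN1B and CDKN2C were instead higher in clone 5 than in the proficient libraries of its experiment, though the list's median was −0.704. They were at 44.4, 362, 84.9 and 62.6 CPM, against at most 27.9, 333, 74.1 and 42.1 in those libraries.

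The 6 genes given here, most of them of nutrient and stress responses, were chosen after their values were seen, as a description. TXNIP, which is induced by glucose and limits its uptake, was at 284, 290 and 165 CPM in the proficient and 38.6 and 12.2 in the KO libraries of experiment 1. In experiment 2 it was at 8.09, 8.79 and 16.9 CPM in the proficient libraries and 32.1, 431 and 9.68 in KO clones 3, 5 and 2. The gene was high in the proficient libraries of experiment 1 and in clone 5 of experiment 2, and low elsewhere. TRIB3, a pseudokinase of the integrated stress response, was at 465, 459 and 269 and 90.8 and 44.8 CPM in proficient and KO libraries of experiment 1, and at 26.8, 21.9 and 39.6 and 59.8, 419 and 38.4 in those of experiment 2. PCK2, a mitochondrial enzyme, was at 199, 201 and 136 and 54.3 and 10.7 CPM in experiment 1 and at 9.97, 9.7 and 9.98 and 23.2, 162 and 9.2 in experiment 2. ARRDC4, a relative of TXNIP, and ASNS, asparagine synthetase, followed the same order, with 4.12, 68 and 1.17 and 9.27, 22.4 and 4.74 CPM in the KO clones of experiment 2. None of these genes was called over the 11 libraries. CD44, a surface receptor for hyaluronan, was at 5.68, 6.49 and 2.43 CPM in proficient and 5.01 and 2.44 in KO libraries of experiment 1, and at 32.8, 34.8 and 18.6 and 29.7, 0.994 and 44.4 in those of experiment 2. It was thus low in all libraries of experiment 1 as well as in clone 5. The part of these states in the changes of other genes was not tested. Without clone 5 the list counts given above rose or stayed, as did the share called over all genes, from 12.4% to 29.6%, so that a rise is not particular to these lists.

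Whether the effect of the KO differed between experiments was tested as an interaction. By edgeR 0 of 13574 genes had an adjusted p under 0.05, and 4150 had an unadjusted p under 0.05. With the WT clone as the only control the counts were 0 and 3416, and by DESeq2 2249 of 14029 genes were called (4877 unadjusted). Of the 1687 called genes, 319 had an unadjusted interaction p under 0.05. Each experiment fitted alone gave 3663 calls in experiment 1 and 494 in experiment 2, of which 1120 and 412 were among the 1687. The 3663 calls rest on the 2 WT clone columns of experiment 1 as separate libraries.

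Position on the genome set KO libraries apart as well. The median change of the 246 tested genes of chromosome 13 was −0.467 and −0.618 in KO libraries 5 and 24 of experiment 1. It was 0.0558, −0.0019 and 0.082 in clones 3, 5 and 2 of experiment 2 and −0.0453 in the parental line of experiment 1. Of these 246 genes 35 were called lower and 15 higher (20.3% called, against 12.4% over all genes). The lowest chromosome of clone 3 was 15 (−0.241) and the highest 18 (0.202), and those of clone 2 were 22 (−0.211) and 18 (0.271). In clone 5 they were 11 (−0.233) and 4 (0.209). In proficient libraries no chromosome lay outside −0.102 to 0.109. Copy number was not measured. PDS5B, KCTD12 and SPRY2, which were called higher (SPRY2 with a call lost in 10 of 11 fits with a library left out), and SERTM1, which was called lower, lie on chromosome 13.

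**Figure D5:**
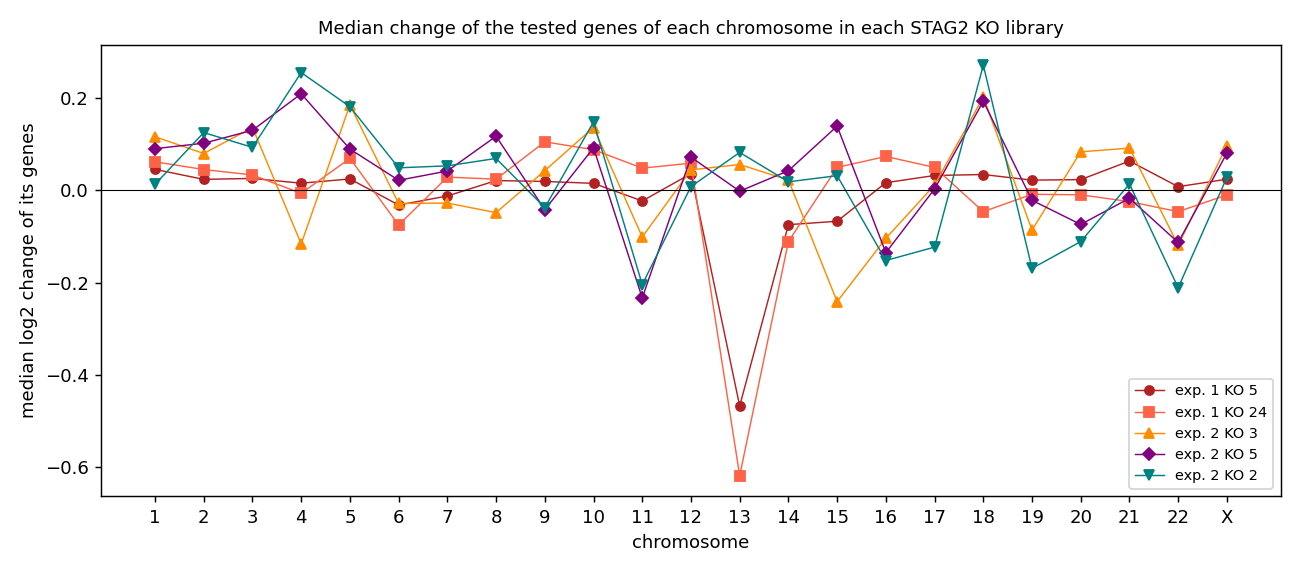
Median log2 change of the tested genes of each chromosome (x axis) in each KO library, against the mean of the proficient libraries of the same experiment. Chromosome 13 was low in both KO libraries of experiment 1, at −0.467 and −0.618, and near 0 in the clones of experiment 2.

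Knockdown of STAG2 by siRNA in A673 cells (3 siSTAG2 and 3 mock-transfected libraries, experiment 4) shares no library with the KO comparison. Its values are normalized counts, for which the authors divided the reads of a library by a single factor. STAG2 was at 1068, 992 and 1090 in mock and 144, 180 and 153 in siSTAG2 libraries (log2 fold change −2.72, adjusted p = 4.01e-18 by limma on log2(value + 1)). Of 12060 genes tested 2476 were called (20.5%), 1151 higher (9.54%) and 1325 lower (11%). Of the 14 genes of lowest fold change in KO cells 13 were tested, and 11 were called lower and 0 higher. DGKK was at 61, 38.4 and 69.8 in mock and 1.11, 0.927 and 1.93 in siSTAG2 libraries (−4.61 on the log2(value + 1) scale, adjusted p = 8.23e-10), and ADGRG2 at 485, 498 and 537 and 112, 132 and 126 (−2.03, adjusted p = 1.67e-14). HTR1F fell less, from 302, 310 and 319 to 143, 148 and 122 (−1.17, adjusted p = 2.19e-09). Of the 11, BMP7, TGFBI and SLC35F1 changed least, by −0.29, −0.57 and −0.88. In KO cells their log2 fold changes were −5.14, −5.54 and −5.56. PDPN and C7 were not called (−0.24 and −0.58, adjusted p = 0.22 and 0.0922).

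Of the 14 genes of highest fold change in KO cells only 7 reached the level tested in the knockdown, and 2 of these were called higher and 0 lower. They were MAP7D2, at 25.7, 28.5 and 28.1 in mock and 65.5, 63 and 65.7 in siSTAG2 libraries (1.21, adjusted p = 4.49e-05), and NR2F1, at 42.9, 24.6 and 31.3 and 76.6, 71.4 and 72.5 (1.17, adjusted p = 0.00012). FOXP2, DNAJC6, CD79B, KCTD12, GRIA2, SPX and PHACTR1 were below the level tested. EDIL3, of which KO cells held 37.8 to 171 CPM, was at 8.58, 10.8 and 14.6 in mock and 15.5, 10.2 and 10.6 in siSTAG2 libraries and was not called (adjusted p = 0.893). Over lists, EWS::FLI1-activated targets were lower in 20 and higher in 6 of 35, genes in contact with a distal long repeat lower in 64 and higher in 6 of 142, secreted factors lower in 11 and higher in 0 of 15, and antigen presentation genes lower in 11 and higher in 1 of 18. Cell cycle genes were lower in 8 and higher in 0 of 36, and Polycomb subunits higher in 4 and lower in 3 of 32. Genes with the fusion bound at the promoter were higher in 61 and lower in 66 of 494. Lineage transcription factors were higher in 6 and lower in 10 of 32. STAG2-dependent genes with a gained contact were higher in 4 and lower in 5 of 58. Immediate early genes were higher in 8 and lower in 5 of 21, channels higher in 2 and lower in 3 of 19, and HOX genes higher in 1 and lower in 2 of 24, with HOXD13 not called. Of 5 alpha and gamma protocadherins tested 0 were called, with a median of 0.302. Of those named in KO cells, PCDHGC3, PCDHGA11 and PCDHAC1 were below the level tested, with means of 1.71, 2.35 and 0.983 in mock libraries. PCDHGA6 was not called (0.01, adjusted p = 0.982). The genes tested here were thus largely not those called lower in KO cells. Of 17 cohesin genes 3 were called higher and 0 lower, namely PDS5A, STAG1 and PDS5B (0.24, 0.30 and 0.21, adjusted p = 0.00792, 0.019 and 0.0244), of which PDS5A was not called in KO cells. TNFRSF21 and STEAP2, called in KO cells, were not called in the knockdown (−0.18 and 0.05, adjusted p = 0.157 and 0.688), and whether these effects differ between KO and knockdown was not tested. The depth was 6852340 to 8184632 recovered reads per library.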

How the data were processed

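RNA was measured by the authors by sequencing of non-directional libraries. The deposited values of experiments 1 and 2 are raw counts of reads per gene symbol, for which the submitters' processing notes name FastQC, TopHat2 2.0.0, Bowtie 0.12.7, SAMtools 0.1.16 and DESeq2, with no counting program or annotation. The deposited signal of the knockdown is normalized counts, which the authors had divided by 1 factor per library, and whole reads were recovered from it within 0.01. Totals per library were 16358857 to 20454331 counts. Nothing states that replicates are separate cultures, so p-values measure the spread between samples. In experiments 1 and 2 the KO samples are clones, while the controls repeat 1 WT clone and the parental line. The spread between unedited clones was thus not sampled.

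Counts were fitted with edgeR 4.0.16 (R 4.3.3, TMM, filterByExpr by STAG2 status, quasi-likelihood test, experiment as a block), and p-values were adjusted by Benjamini and Hochberg over the 13574 genes tested. A first fit gave the filter the design matrix. It was replaced after its counts were seen, to match how the series had been processed before, and is kept as an alternative. The knockdown was tested with limma 3.58.1 (trend) on log2(value + 1) where the mean value reached 10. DESeq2 1.42.0, Python 3.11.15, pandas 2.3.3, scipy 1.17.1 and matplotlib 3.10.9 served alternatives, tables and figures. Steps were tested on simulated data.

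Named were the 14 called genes of highest and the 14 of lowest fold change with a mean of at least 5 CPM and no overlap of the groups, STAG2, STAG1, and in each of 21 lists up to 4 called genes of smallest adjusted p with a mean of at least 1 CPM. Members and lists were chosen with earlier results of these data known. Genes that overlap on either strand cannot be told apart in these reads, and protocadherins of the alpha and gamma clusters share exons, which makes their counts uncertain. Alternatives were another test, scaling, filters, controls, each experiment alone and each library left out. The other libraries of the series were not used.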

Additional observations from a re-analysis of the deposited data

Results flagged for a closer look

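Values of named genes far from the rest of their group were found in 7 of 168 groups looked at. The cutoff would mark about 1 in 20, or 8.4, if values were independent and from 1 normal distribution. As each group pools 2 experiments, this rate need not hold, and the counts do not tell whether these values are chance. DACT2 was at 12.7 CPM in the parental library of experiment 1, below the other 5 proficient libraries. TGFBI was at 0.225 CPM in KO library 5 of experiment 1, below the other 4 KO libraries at 1.31 to 1.44. FOXP2 was at 4.65 CPM in KO library 24 of experiment 1, against 17.6 to 27 in the other 4. HLA-C was at 109 CPM in the parental library of experiment 1, above the other proficient libraries at 48.1 to 64.2. PCDHGA6 was at 14.1 CPM in KO clone 3 of experiment 2, against 16.7 to 17.6 in the other 4 KO libraries. LUM stood out in 2 libraries of experiment 1, at 1.8 CPM in KO library 5 and at 11 CPM in the parental library.

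Lists of at least 3 tested genes whose median change was above 0 in all KO libraries of 1 experiment and below 0 in all of the other were the cell cycle list, whose mean change in experiment 1 lay 0.595 above that in experiment 2, and the genes with a common contact to a distal short GGAA repeat, at 0.186. The immune markers, left out because 1 gene was tested, were at 0.385 and 0.675 in the KO libraries of experiment 1 and at −0.551, −0.546 and −0.365 in those of experiment 2. These differences between experiments were not tested.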

How the results depend on the processing

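The 1687 calls (905 higher, 782 lower) changed with the test and the samples. DESeq2 called 2621 (1284 lower), among them 1677 of the 1687. Experiment 1 alone gave 3663 (1698 higher, 1965 lower), experiment 2 alone 494 (245 and 249), the parental line as the only control 116 (43 and 73), and the WT clone as the only control 1278. With the WT clone columns of experiment 1, which differ little more than by counting error (mean chi-square 1.31 per gene, 8.82 to 131 in the other pairs), summed into 1, 1154 were called (598 higher). RLE scaling gave 1675, no filter 1612, a mean of at least 5 CPM 1382, no experiment term 1376 and the filter given the design matrix 1736. The summed columns, the design matrix filter and DESeq2 for the interaction (2249 called, 0 by edgeR) were chosen after seeing the data. Leaving out 1 library gave 1053 to 4048 calls, 487 to 2040 higher and 551 to 2008 lower. The total moved by over 1.5 times without WT clone library 1 of experiment 2 (1053, 487 higher) and KO clone 5 of experiment 2 (4048). The higher calls also did so without WT clone library b of experiment 1 (594), WT clone library 2 of experiment 2 (532) and KO clone 3 of experiment 2 (585).

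STAG2 was lower in every fit, with an adjusted p above 0.05 in experiment 1 alone (−1.37, adjusted p = 0.115) and against the parental line only (−1.70, adjusted p = 0.208). Over its alternatives the adjusted p ran from 3.11e-07 by DESeq2 to 0.208 by edgeR against the parental line only. Of 83 named genes called, 72 kept their call in every fit with 1 library left out and 23 in every fit, and none reversed. Parental controls only lost 57 of these calls, experiment 2 alone 34 and DESeq2 2 (ADGRG2 and NID2). With the WT clone columns of experiment 1 summed, 5 were lost (SPRY2, PCDHB7, RBBP7, PHC3 and THY1). The calls lost without 1 library were those of MTF2 (without WT clone library 1 of experiment 2), BCL11B (that library or KO library 5 of experiment 1), PCDHGA6 (either KO library of experiment 1), HOXC13 in 5, RBBP7 in 6, HOXC12 and LUM in 7, PCDHB7, PHC3 and THY1 in 9 and SPRY2 in 10 of 11 fits. STAG1 was called without KO clone 5 of experiment 2 (adjusted p = 0.00472).

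The median log2 fold changes of these lists moved by more than the spread between replicates in at least 1 alternative, and ranges over 1 library left out also hold values that did not. In experiment 1 alone, synaptic genes were at −0.94, immediate early genes at −0.394, beta protocadherins at 0.552, secreted factors at −1.88 and genes with a lost contact to a short GGAA repeat at −0.374. Alpha and gamma protocadherins were at −0.167 with DESeq2, −0.168 with no filter, −0.0837 in experiment 2, −0.213 and −0.181 with WT clone or parental controls only, −0.158 with the columns summed and −0.432 to −0.134 with 1 library left out. Immediate early genes were at −0.249 to −0.0341 with 1 library left out. Within that spread they were above 0 with DESeq2 (0.0444), no filter (0.0405), at least 5 CPM (0.0326) and in experiment 2 (0.0197), and channels, at 0.233 as reported, were below 0 with DESeq2 and in experiment 1 (−0.225 each) and with no filter (−0.283). Ewing markers were at 0.3 and 0.518 with WT clone or parental controls only and at 0.321 to 0.48 with 1 library left out. With parental controls only, cohesin genes were at 0.0519 and genes with EWS::FLI1 at the promoter at 0.0178. With WT clone controls only, genes in contact with a long GGAA repeat were at −0.447, as were those of common contact. Those with a lost contact were at −0.268 with at least 5 CPM, −0.673 in experiment 2 and −0.517 to −0.4 with 1 library left out. STAG2-dependent genes of common contact were at −0.0177 in experiment 2. Those of lost contact changed sign, from −0.326 with DESeq2 and −0.33 with no filter to 0.218 with at least 5 CPM and 0.174 in experiment 2.

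Scaling by library size alone put the median of all genes at 0.298 in KO clone 5 of experiment 2 (0.0473 as reported) and at −0.14 in KO library 24 of experiment 1 (0.00902 as reported). Chromosome 13 then was at −0.513 in KO library 5 and −0.765 in KO library 24, and chromosome 9 at −0.045 in library 24. In clone 5 of experiment 2 chromosome 11 was at 0.0162 and chromosome 4 at 0.463. With at least 5 CPM, chromosome 13 was at −0.518 in library 24 and chromosome 11 at −0.272 in clone 5. Chromosome 9, the highest of library 24 as reported, was then at 0.136 in it, below chromosome 10 (0.176). For the knockdown, mock and siSTAG2 replicates of the same number as a replicate block gave 2881 calls, with all 2476 among them, and higher calls ran from 743 (without siSTAG2 replicate 3) to 1246 with 1 library left out. The cause of these changes was not tested.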

Other observations

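In the KO clones of experiment 2 the median change differed with gene length, at −0.0802, −0.0995 and −0.1 in clones 3, 5 and 2 over the shortest of 13092 genes sorted by length into 4 equal groups and at 0.097, 0.144 and 0.0925 over the longest. In KO libraries 5 and 24 of experiment 1 it was 0.0348 and 0.0356 over the shortest and −0.0145 and 0.00406 over the longest group. The first principal component held 47.8% and the second 24.1% of the variance of the 11 libraries. On the first, the proficient libraries of experiment 1 lay at −76.1, −75.4 and −49.8, those of experiment 2 at −3.21, −0.683 and 3.86, KO clone 5 of experiment 2 at −27.2 and the other KO libraries at 31.1 to 76.7.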
